A study of Mus musculus with 24 samples.

Results

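Open chromatin was compared between mouse embryonic stem cells that overexpressed a mutated CTCF and a control line, both after degradation of the endogenous protein. The comparison used 4 of the 24 ATAC-seq libraries of the series, 2 per line. A region of 501 bp counted as gained when both libraries of the mutated line and neither library of the control line had a peak there, and as lost in the reverse case. Of 204112 regions called by at least 1 of the 4 libraries, 8227 were gained (4.03%) and 3113 were lost (1.53%).

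All cells were of the E14 line, carried CTCF AID, and received the auxin IAA for 12 h in these 2 groups. The control group had the genotype label overexpressed control, and the mutated group the label overexpressed mutated CTCF. Culture was in a serum-free medium with leukemia inhibitory factor, the MEK inhibitor PD0325901 and the GSK3 inhibitor CHIR99021. The labels do not say which residues were mutated, what drove the transgenes, what the control line expressed, or how many clones each line represents. They also do not say whether replicates came from separate cultures, so the spread between them may be technical. For orientation, values are also given for the control line without IAA, for a line that overexpressed wild type CTCF with 12 h of IAA, and for CTCF AID cells without a transgene labelled as in serum at 0 and 12 h of IAA. The protocol text of those serum libraries describes the same serum-free medium, so their medium is known from the label alone.

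CTCF is a zinc finger protein that binds a long, directional DNA motif. It positions the nucleosomes around its sites and, with the cohesin ring, anchors chromatin loops and domain boundaries. An auxin-inducible degron (AID) is a tag that recruits a ubiquitin ligase when auxin is added, so that the tagged protein is destroyed within hours. In ATAC-seq a transposase cuts exposed DNA, and a bound CTCF site usually appears as a narrow accessible peak. A transgene without the degron is not a target of the auxin, so adding a CTCF version in this background asks what that version does at the sites that the endogenous protein leaves.

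The 4 libraries differed in ways other than the transgene. The mutated line had 146703 and 130363 peaks with a median length of 344 and 422 bp, and the control line with IAA 120137 and 128794 peaks of 456 and 364 bp. Peaks covered 66.6 and 68.6 Mb in the mutated line and 67.7 and 60.4 Mb in the control line. A peak on chromosome 1 whose sequence is shared with mitochondrial DNA was present in 1 library of each line. Replicates shared identical coordinates for 0.151% of peaks in the mutated line and 0.142% in the control line, so neither pair was 1 library deposited again.

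Examples of gained regions with a match to the CTCF consensus are shown first. The 8 sequences below are from the strongest gained regions with a CTCF match whose peak summits lay inside the region in both mutated libraries, and they show how varied the matches were. A match is a 14-bp stretch on either strand that departs from the CTCF consensus at no more than 1 position. Each is the RefSeq GRCm38 reference (the mm10 build) read 5′ to 3′ on the strand of the match, with the 14-bp match in capitals and 20 bases on either side.

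Gm26027: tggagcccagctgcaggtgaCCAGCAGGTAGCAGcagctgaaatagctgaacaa
D430036J16Rik: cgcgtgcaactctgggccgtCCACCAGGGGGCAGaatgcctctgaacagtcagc
Gm24885: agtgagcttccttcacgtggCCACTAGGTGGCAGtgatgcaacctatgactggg
Gm47905: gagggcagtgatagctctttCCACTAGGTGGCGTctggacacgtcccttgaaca
Gm13506: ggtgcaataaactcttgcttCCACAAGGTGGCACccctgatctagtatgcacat
Gm48071: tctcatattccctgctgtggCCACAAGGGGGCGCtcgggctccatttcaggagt
Olfr650-ps1: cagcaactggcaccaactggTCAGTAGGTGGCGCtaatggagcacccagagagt
Pdss1: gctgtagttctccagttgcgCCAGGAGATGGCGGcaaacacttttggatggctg

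The names are those of the nearest annotated transcription start, which need not be regulated by the site. The D430036J16Rik and Gm24885 sites matched the consensus without a mismatch. Counted from 1 at the 5′ end of the consensus, where S stands for C or G and Y for C or T, the Gm26027 site carried G10A, the Gm47905 site S14T, the Gm13506 and Gm48071 sites Y5A, the Olfr650-ps1 site C1T and the Pdss1 site Y5G. By annotation, the Gm26027 site lay in an intron of Alg14, the Pdss1 site in an intron of Apbb1ip and the Gm48071 site in an intron of Hs1bp3, and the other 5 were intergenic.

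The height of each peak is given as its summit pileup, the number of overlapping fragments at the summit recovered from the deposited fold and −log10 p, which is not scaled for depth. The D430036J16Rik region (chr9:81626834-81627334), which lay upstream of that non-coding gene and 5531 bp from a start of the serotonin receptor gene Htr1b, had a pileup of 75 and 45 in the mutated libraries and no peak in either control library with IAA. It had 50 and 57 in the untreated control line and 62 and 46 in the wild type line. The Gm24885 region (chr2:107083065-107083565) had 43 and 43 in the mutated line, 51 and 40 in the untreated control and 30 and 33 in the wild type line. Both regions were thus called by every library of the mutated, untreated and wild type lines.

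The Gm26027 region (chr3:121320873-121321373) had 110 and 87 in the mutated line, 76 and 80 in untreated cells and 87 and 100 in the wild type line. The other 5 regions had the same pattern of calls in these lines. The Gm26027 match was centred 130 bp from the centre of its region, where the mutated peaks were 164 and 173 bp long. Only 6 of the 24 libraries called that region, and no serum library did. The Gm47905 region (chr13:4110417-4110917) had summit pileups of 47 and 41 in the mutated line against 40 and 36 in untreated cells. The Gm13506 region (chr2:39372976-39373476) had 50 and 44 against 69 and 67. At the olfactory receptor pseudogene Olfr650-ps1 (chr7:104199840-104200340) the pileup was 52 and 44 against 72 and 69. None of these 3 regions had a peak in the control line with IAA. The Pdss1 region (chr2:22864560-22865060) had a pileup of 55 and 40 and the Gm48071 region (chr12:8326554-8327054) 53 and 50 in the mutated line, and neither was called in the control line with IAA.

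Counted over the genome, more CTCF consensus sites lay under a peak in both mutated libraries than in either control library. Of 6945 sites that matched the consensus without a mismatch, 26.3% and 23.97% were under a peak in the mutated line, and 12.4% and 12.2% in the control line with IAA. The means were 25.1% ± 1.66 and 12.3% ± 0.163 (SD, n = 2 each), a difference of 12.9 percentage points against a spread of 1.67, the root of the summed squares of both SDs. The groups did not overlap, and the exact two-sided permutation p was 0.333, the smallest that 2 libraries against 2 can give. In bulk libraries, a site open in fewer cells and a site less open in each cell cannot be told apart.

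The same sites were under a peak in 33.8% and 34.4% of cases in the untreated control line, above both mutated libraries. In the wild type line the values were 30.8% and 26.3%, and the lower of these lay just below the higher mutated library. The mutated and wild type lines therefore overlapped in this measure. In the serum cells the share was 24.98% and 21.4% before IAA and 7.42% and 9.24% after 12 h.

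Sites with 1 mismatch numbered 59988 and were less often under a peak. The mutated libraries had 9.85% and 9.23% and the control libraries 6.68% and 6.29%, a difference of 3.06 percentage points against a spread of 0.520 (exact two-sided permutation p = 0.333, n = 2 each). Untreated cells had 12.1% and 12.3%. Among 1154 sites without a mismatch in repeat-masked sequence, the mutated line had 12.6% and 11.9%, the control line with IAA 4.94% and 5.03%, and untreated cells 16.9% in both libraries.

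**Figure D1:**
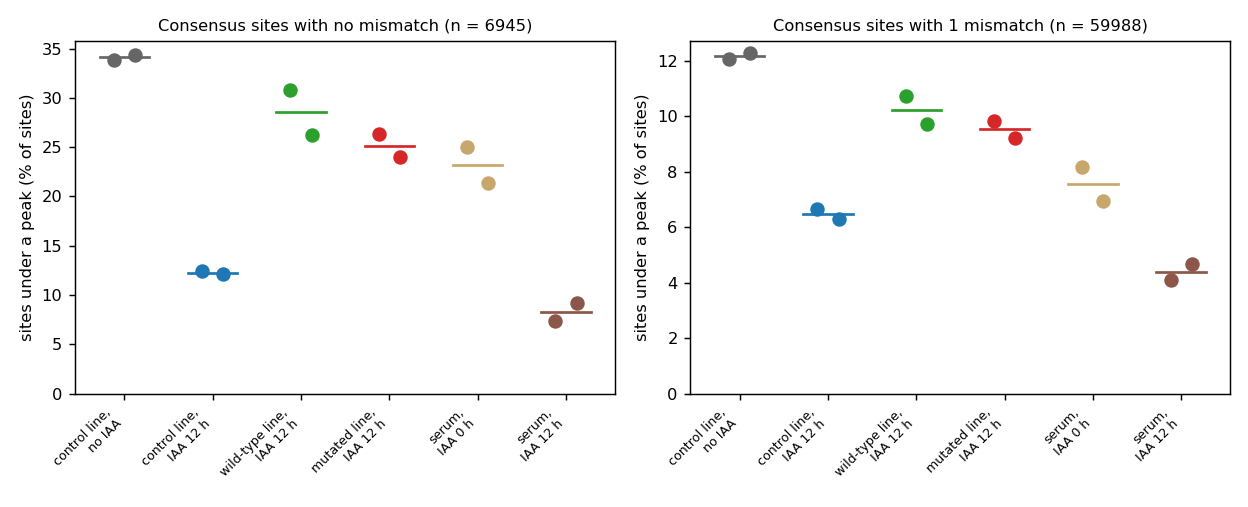
Percentage of CTCF consensus sites under a peak in each library, for sites without a mismatch and with 1 mismatch, in the serum-free lines and in serum cells, with each point a library and each line the mean of its 2 libraries. Both mutated libraries sit above both control libraries with IAA, and below both untreated libraries, in both site classes.

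Site by site the changes ran almost only one way. Of 2111 sites without a mismatch under a peak in at least 1 of the 4 libraries, 514 were gained (24.3%) and 2 were lost (0.0947%), while 650 were under a peak in all 4. Of 7119 sites with 1 mismatch, 1038 were gained (14.6%), 54 were lost (0.759%) and 2943 were under a peak in all 4.

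The ratio of the lines varied with the position of the single mismatch. Sites with a mismatch at position 14, the last of the consensus, were under a peak in 13.0% and 11.8% in the mutated line against 6.03% and 5.92% in the control line, a ratio of the means of 2.07. The ratio was 2.05 for sites without a mismatch and 1.98 for a mismatch at position 5. With a mismatch at position 1 it was 1.61 and at position 12 it was 1.60.

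In percentage points the difference was largest, among the mismatch positions, at position 3, with 7.19 (26.9% and 25.1% against 19.2% and 18.4%), above position 14 with 6.39. Positions 9, 12 and 4 followed with 4.32, 4.31 and 4.18, and then position 5 with 3.74. At positions 3, 4, 6, 9, 11 and 13 the ratio lay between 1.28 and 1.55, and at positions 2, 7, 8 and 10 it was closest to 1. With a mismatch at position 10, where the consensus has G, 15.5% and 15.4% of 2602 sites were under a peak in the mutated line against 14.9% and 14.03% in the control line, a ratio of 1.07. The ratio was 1.06 at position 2, 1.04 at position 8 and 1.13 at position 7. Sites with a mismatch at position 10 counted 16 gained and 9 lost, and those with one at position 14 counted 98 gained and 1 lost.

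The wild type and untreated lines are compared with the same control libraries, so their values are given side by side only. In the wild type line the ratio to the control line with IAA was 2.32 without a mismatch, 2.34 at position 14 and 2.28 at position 5, and 1.04 at position 10, 1.04 at position 8 and 1.00 at position 2. In untreated cells it was 2.78, 3.01 and 2.80, and 1.13, 1.22 and 1.07. The mutated line had the lowest of these ratios without a mismatch and at positions 5 and 14. The mismatch positions were examined after the first results were seen.

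**Figure D2:**
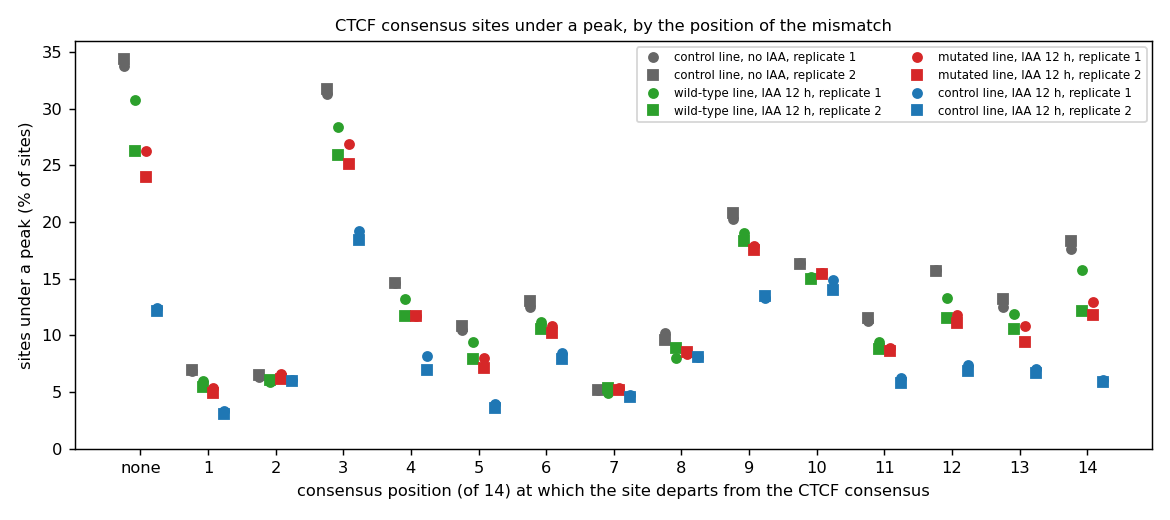
Percentage of CTCF sites under a peak in each library of the untreated, wild type, mutated and control lines, for sites without a mismatch and by the consensus position (1 to 14) of a single mismatch. The mutated libraries (red) lie above the control libraries with IAA (blue) by the most percentage points for no mismatch, then for positions 3 and 14, and closest to them at positions 2, 7, 8 and 10.

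Regions gained in the mutated line held CTCF matches far more often than regions lost. A match with at most 1 mismatch was present in 1243 of the 8227 gained regions (15.1%, 95% exact binomial interval 14.3 to 15.9%) and in 52 of the 3113 lost regions (1.67%, 1.25 to 2.18%). Regions called by all 4 libraries held one in 3.67%, and all regions called by at least 1 of the 4 in 4.41%. Matches without a mismatch were present in 404 gained regions (4.91%) and 2 lost regions (0.0642%), against 0.709% of regions called by all 4. More than 1 match occurred in 53 gained regions (0.644%) and 1 lost region (0.0321%). The share was 0.0934% of regions called by all 4 and 0.120% of all regions called by at least 1 of the 4. The intervals here cover counting error only.

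The share was highest where both mutated libraries and no control library had a peak. Regions called by the first mutated library alone held a match in 7.53% and by the second alone in 6.88%, close to the 7.59% of the 68745 regions called by none of the 4 libraries. Those called by 1 control library alone held one in 2.24% and 2.09%. Regions called by both mutated libraries and 1 control library reached 6.71% and 5.42%, and those called by both control libraries and 1 mutated library 2.42% and 1.78%. Regions shared by 1 library of each line lay between 2.26% and 2.79%. These patterns were not selected alike, because a region was kept only when at least 2 of the 24 libraries called it. Regions called by 1 or none of the 4 were therefore kept only through calls in libraries outside the comparison.

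**Figure D3:**
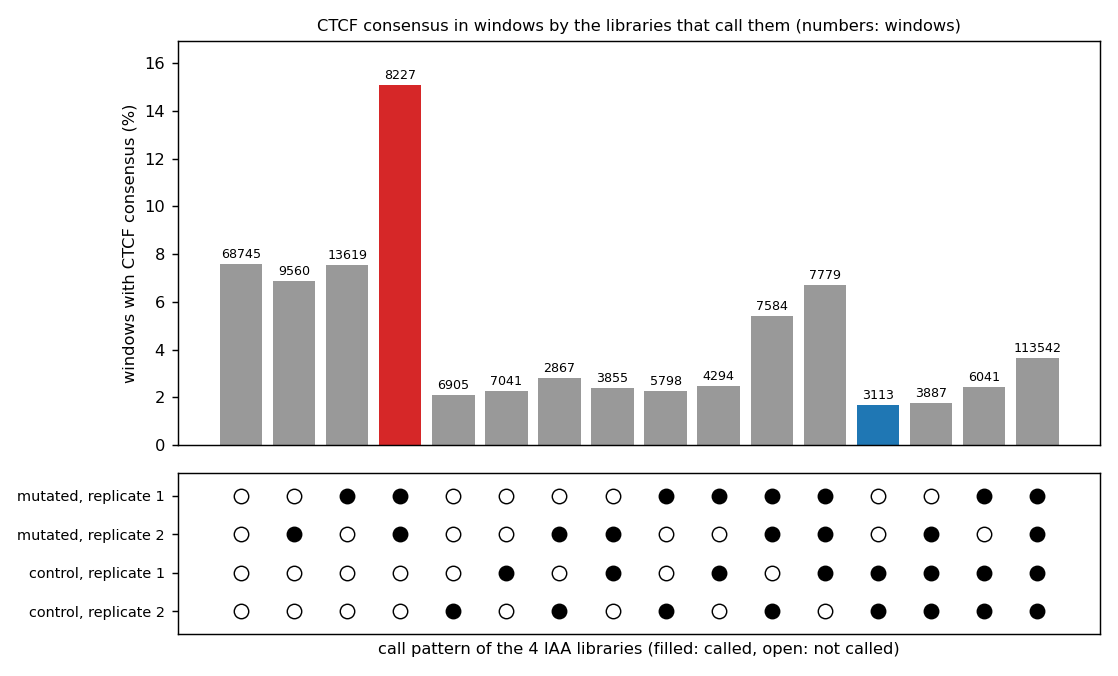
Percentage of regions with a CTCF match (bars, with the number of regions above each) for every pattern of calls over the 4 libraries, shown by filled and open circles. The pattern of both mutated and neither control library (red) stands at 15.1%, and the reverse pattern (blue) at 1.67%.

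The counts also moved with the lengths of the peak lists. With all 4 lists cut to 120137 peaks by the deposited −log10 p, 5257 of 190320 regions were gained (2.76%) and 4490 lost (2.36%), so the counts in the 2 directions were closer. The match share of the gained regions was then 20.3%, and that of the lost regions 1.85%. Of the gained regions at deposited length 4922 were gained in both analyses, which is 59.8% of that set and 93.6% of the set from cut lists.

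As a share of each list's own peaks, a CTCF match within 250 bp of the summit was present in 4.78% and 4.82% in the mutated line and 3.31% and 3.29% in the control line with IAA. The means were 4.80% ± 0.0289 and 3.30% ± 0.0208 (SD, n = 2 each) and differed by 1.502 percentage points, beyond the spread of 0.0356 (exact two-sided permutation p = 0.333). With lists of equal length the difference was 1.77 percentage points. Untreated cells had 6.61% and 6.501% and the wild type line 5.396% and 5.22%, so that the mutated line lay below both and above the control line with IAA.

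Among peaks that both lines shared, those on CTCF sites also ranked higher in the mutated line. This was examined after the first results were seen, with the within-list percentile of −log10 p in lists of equal length, for 68868 regions called by all 4 with the summits inside. Both mutated libraries ranked above both control libraries in 17.9% of them and below both in 21.7%. Of 521 regions with a match without mismatch, 293 ranked higher in both mutated libraries (56.2%) and 37 lower (7.10%). Their median percentiles were 68.8 and 67.8 in the mutated line against 55.8 and 54.4 in the control line.

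The shift was smaller for weaker matches. With 1 mismatch, 33.3% of 2100 regions ranked higher and 16.3% lower, and with 2 mismatches the shares were 18.3% and 22.0%, near those of all regions. Away from promoters, 40.8% of 2019 regions with a match ranked higher and 13.6% lower. At promoters with a match the shares were 28.2% and 17.4% of 602 regions.

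The gained regions with a match were then looked up in libraries outside the comparison. Both untreated libraries called 82.5% of the 1243 (95% exact binomial interval 80.2 to 84.5%) and neither called 5.23%. Both wild type libraries called 67.6% (64.9 to 70.2%) and neither 8.21%. Over all 9000 regions with a match called by at least 1 of the 4, both untreated libraries called 78.9% and both wild type libraries 71.5%, so the shares of the gained regions were near those of regions with a match in general. Gained regions without a match were called by both untreated libraries in 29.7% and by both wild type libraries in 33.4%, against 26.0% and 23.6% for lost regions without a match. For comparison, of all regions without a match called by at least 1 of the 4, both untreated libraries called 63.6% and both wild type libraries 64.8%.

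The serum cells, which carried no transgene and shared no library with the comparison, gave a further reading. Before IAA, both serum libraries called 45.9% of gained regions with a match, and after 12 h of IAA 5.79%. Over all regions with a match called by at least 1 of the 4 the shares were 48.4% and 31.6%, so the gained regions were near that share before IAA and below it after. Gained regions without a match were also low after 12 h, at 6.37% against 32.7% of all regions without a match. The rule itself required no peak in the control line with IAA, so a low share after IAA is not independent of it. Regions called by both serum libraries at 0 h and neither at 12 h made up 401 of the gained regions with a match (32.3%), 290 of those without one (4.15%), and 15 lost regions (0.482%). Over all regions called by at least 1 of the 4 the share was 1.39%, and over those without a match 0.822%. Of regions with a match called by all 4 libraries, 6.05% changed in that way in serum, and of all regions with a match called by at least 1 of the 4, 13.6% did. The opposite change in serum was present at 6 gained regions with a match and at 127 lost regions (4.08%), a share close to the 3.55% of all regions called by at least 1 of the 4.

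**Figure D4:**
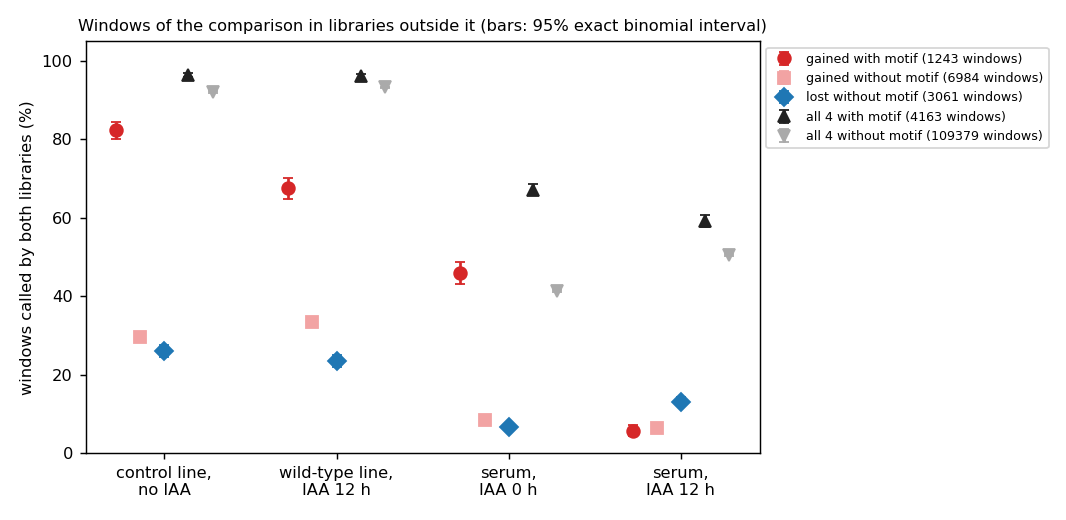
Percentage of 5 sets of regions that both libraries of another group also called, with 95% exact binomial intervals that cover counting error only, for gained regions with and without a CTCF match, lost regions without one, and regions called by all 4 with and without one. Gained regions with a match stand at 82.5% in untreated cells and 67.6% in the wild type line, against 29.7% and 33.4% for gained regions without a match and 78.9% and 71.5% for all regions with a match called by at least 1 of the 4 (not drawn).

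Most gained regions, like lost regions, were weak peaks, and the match share increased with rank. For the 6411 gained regions with the summit inside in both libraries (3.14% of all regions tested, against 2146 lost, 1.05%), the median percentile in the weaker list was 17.2, against 10.3 for lost regions with the summit inside and 60.9 for regions called by all 4. Up to the 10th percentile 6.78% of 2093 gained regions held a match. Between the 40th and 60th percentile 38.3% of 812 did, and above the 60th 54.8% of 210. Over the same bands the share also called by both untreated libraries went from 19.1% to 84.8%.

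The match share had no such gradient in lost or shared regions. The share also called by both untreated libraries did increase with rank in regions called by all 4, from 59.8% to 99.8%. In lost regions it went from 19.3% to 42.6% up to the 60th percentile and was 37.5% above it. Above the 60th percentile only 8 lost regions remained, of which 1 held a match. Regions called by all 4 held a match in 3.72% to 3.81% of cases in every band. Within gained regions with the summit inside, the match lay at a median of 79 bp from the centre of the region, against 96 bp in regions called by all 4. In regions called by none of the 4 the median was 85 bp, close to that of gained regions.

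Gained regions were rarely at promoters. Within 500 bp of a transcription start lay 4.12% of gained regions and 5.04% of lost regions, against 19.1% of regions called by all 4 and 12.6% of all regions tested. Gained regions were 50.6% intronic and 37.2% intergenic. Where a match was present, 15.8% of 3764 intronic regions but 3.89% of 1132 promoter regions were gained. Without a match the shares were 3.88% to 4.08% outside promoters and 1.199% at promoters. As a share of list peaks, promoters made up 12.6% and 13.5% in the mutated line and 14.3% and 13.7% in the control line, a difference of −0.999 percentage points against a spread of 0.786 (exact two-sided permutation p = 0.333). With lists of equal length it was −0.0579 against a spread of 0.0677, so no difference beyond the spread was present.

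Of 19506 tested promoter regions of protein-coding genes, 150 were gained, 19 of them with a match (12.7%), and 97 were lost, 5 with a match. Of all the tested ones 815 held a match (4.18%). The 5 sites below, with 8 bases on either side, are from the highest-ranked of those 19 with the summit inside.

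1700013F07Rik: tagttgaaCCGCCAGGTGGCGCatcagaat
Pcp4: actgtgctCCACTAGGTGGCTCtttgcgct
Apol8: tccaccatCCACTAGATGGTGCtgtaccct
Psg16: cagagtgtCCACTAGGTGGCGAgctcattc
Adat1: cattttgcCCACCAGGTGGCGCagtacttc

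The Adat1 site had no mismatch, and the others carried A3G, R13T, C12T and S14A in the order listed, with R for A or G. At Adat1, a tRNA adenosine deaminase gene (chr8:111989930-111990430), the summit pileup was 36 and 44 in the mutated line, 67 and 65 in untreated cells and 28 and 34 in the wild type line, with no peak in the control line with IAA. At Pcp4, which encodes a calmodulin-binding peptide of neurons (chr16:96467385-96467885), it was 28 and 26 in the mutated line against 22 and 41 in untreated cells. At 1700013F07Rik (chr3:108537235-108537735) it was 32 and 27 against 46 and 50. All 3 promoters were thus called in the mutated, untreated and wild type lines and in neither control library with IAA.

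The same pattern was present at the apolipoprotein L gene Apol8 (chr15:77756582-77757082), with pileups of 45 and 37 in the mutated line and 43 and 46 in untreated cells. Psg16, a pregnancy-specific glycoprotein gene (chr7:17073839-17074339), had 26 and 30 against 38 and 31. Grpr, the gastrin-releasing peptide receptor gene (chrX:163549414-163549914), had 26 and 22 against 33 and 33. Further members of the 19 were Slc35b2, a transporter of the sulfate donor PAPS, Mus81, a structure-specific endonuclease, and Polr2i, a subunit of RNA polymerase II. Among RefSeq promoters, which are shorter intervals from 250 bases before to 50 after a start, 749 of 32851 (2.28%) held the consensus with at most 1 mismatch.

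Most of the highest-ranked gained regions named here were edges of peaks with the summit outside the region. Over all gained regions, 6411 of 8227 had the summit inside in both mutated libraries. At Zfp54, a zinc finger gene (chr17:21422301-21422801), the mutated libraries had pileups of 140 and 157 and untreated cells 158 and 151, but in the first mutated library the summit lay 663 bp from the centre of the region. At Pitpnc1, a phosphatidylinositol transfer protein gene (chr11:107468998-107469498), the pileups were 128 and 129 with a summit 1549 bp away. Of the 8 gained regions with a match named by rank, the Gm26027 region alone had its summit inside in both libraries. The summit also lay outside at Gm48199, where the mutated line had 84 and 76, 1 wild type library 17 and both untreated libraries no peak. The same held at Igfbpl1, with 146 and 108 in the mutated line and 110 and 94 in untreated cells, at Gars, a tRNA synthetase gene, with 113 and 103, at Gm26065, with 100 and 80, and at Gm43084, with 58 and 56.

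The 4 strongest gained regions without a match were all edges of this kind, at 1600023N17Rik, Hltf (a DNA helicase gene), Zfp444 and Mbnl2 (a splicing regulator gene). Their pileups in the mutated line ran from 232 to 322. Hltf and Mbnl2 had no call in either wild type library. The Zfp444 region, in contrast, was also called in both untreated libraries, at 313 and 278, and in both wild type libraries, at 309 and 306.

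Other gained promoters had no match. Sp100, a nuclear body gene (chr1:85649766-85650266), had summit pileups of 39 and 37 in the mutated line, no peak in either untreated library and 24 in 1 wild type library. Gm14444, a zinc finger gene (chr2:175009927-175010427), had 45 and 31, with 38 in 1 untreated library and 35 and 36 in the wild type line. Both thus lacked a peak in at least 1 untreated library. The regions at Rpl9, a ribosomal protein gene, Spon1, an extracellular matrix gene, Cabp1, a calcium sensor gene, Tpm2, a tropomyosin gene, and Aim2, a DNA sensor gene, had the summit outside the region in both mutated libraries. Of these, Rpl9 (92 and 85) and Aim2 (41 and 46) were also called in both untreated libraries.

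Lost promoters ranked high were also mostly edges. At Wbp1 (chr6:83120571-83121071) the control libraries with IAA had pileups of 289 and 288, with the summit 757 bp from the centre in the first. At Id2, an inhibitor of basic helix-loop-helix factors (chr12:25096514-25097014), the values were 203 and 165 in the control line with IAA and 188 and 175 in untreated cells. Psrc1, a spindle protein gene, had 141 and 144, and Cd180, a Toll-like receptor homologue, 71 and 68. Zdhhc11 had 48 and 40, Dnaja4, a co-chaperone gene, 26 and 24, and Ccdc71 52 and 24. Of the 8 lost promoters named by rank, only Hmox2, a heme oxygenase gene (chr16:4756839-4757339), had the summit inside in both control libraries, with 22 and 22 in the control line with IAA, 16 and 16 in the wild type line and none in the mutated line.

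The lost regions with a match that ranked highest lay at Tep1, Rps6ka1, Klf16 and Il17rc. At Rps6ka1, a ribosomal S6 kinase gene (chr4:133899414-133899914), the control libraries with IAA had pileups of 110 and 119, and the untreated libraries 36 and 37, but the summit in the first lay 839 bp away. The other 3 had pileups of 65 to 154 in the control line with IAA, and their summits were outside the region as well. Away from promoters, strong lost regions without a match lay in introns of Btbd11 (252 and 232), Cfap300 (169 and 157) and 1700028E10Rik (192 and 152), again with the summit outside.

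Of the lost regions with their own summit, the 4 ranked highest had no match. An intergenic region 61550 bp from Brd1 (chr15:88668971-88669471) had 39 and 34 in the control line with IAA, 41 and 43 in untreated cells and 36 in 1 wild type library. The others, nearest to Gm2824, Mir7076 and Mup-ps16, had pileups of 30 to 46 in the control line with IAA, and each was called by at least 1 untreated library and by 1 wild type library.

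Chromosome 6 stood apart from the rest. Its share of peaks was 5.77% and 5.76% in the mutated line and 6.13% and 6.11% in the control line with IAA. The untreated control line had 6.24% and 6.13%, and the wild type line 5.80% and 5.83%. The lines with a CTCF transgene were thus both below the control line, with and without IAA. The serum cells, which carried no transgene by their labels, were lower still, at 5.36% and 5.47% before IAA and 5.43% and 5.399% after 12 h. In the remaining groups of the series, outside the comparison, the share ran from 5.86% to 6.29%. A low share was therefore not particular to lines with a CTCF transgene. The mean share of the mutated line was below that of the control line with IAA in all 6 bins of up to 25 Mb, with ratios from 0.920 to 0.959. Of its regions 2.99% were gained and 2.14% lost, against 3.12% to 4.62% gained and 1.25% to 1.76% lost on the other chromosomes without Y, where only 53 regions were tested and 5 were gained. The number of copies of each chromosome in these lines was not measured, and its part in this result was not tested.

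**Figure D5:**
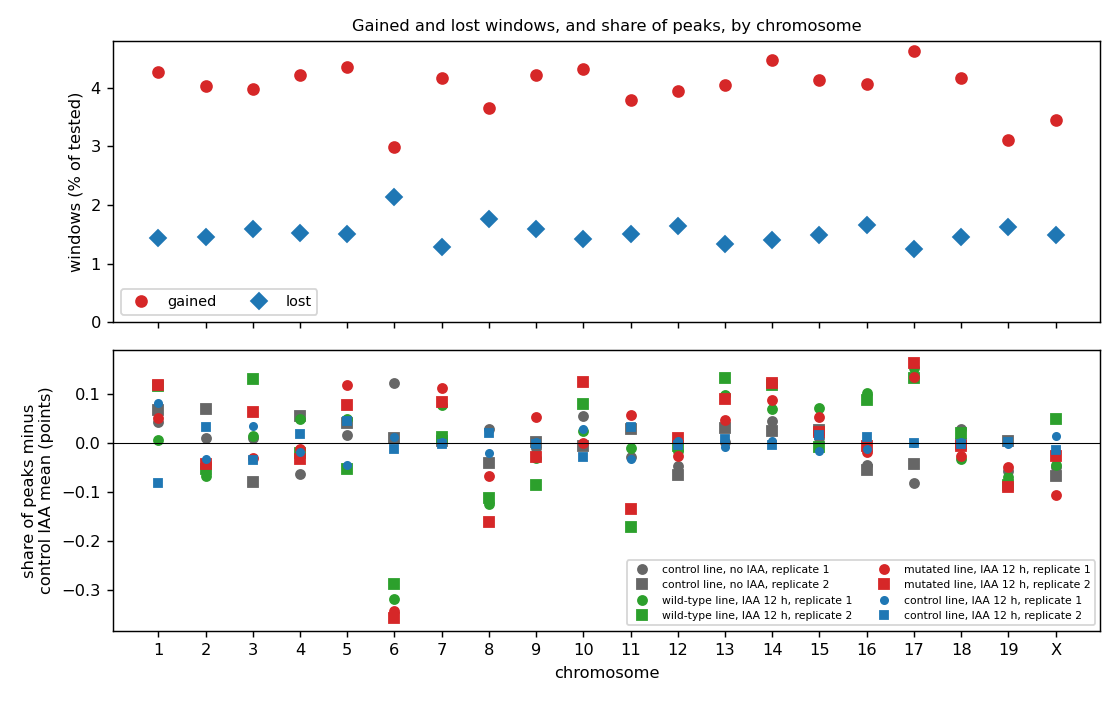
Top, percentage of tested regions gained and lost on each chromosome; bottom, each library's percentage of peaks on a chromosome minus the mean of the 2 control libraries with IAA, in percentage points. On chromosome 6 the mutated and wild type libraries lie lowest, with a mean difference of −0.351 for the mutated line against −0.114 to 0.149 on the others.

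The gene lists held 330 distinct matched genes in 14 groups. Of 373 tested promoter regions, counted per gene, 8 were gained and 3 lost, against 1.32% gained and 0.610% lost over all 25745 promoter regions. As shares, both counts were somewhat above those of all promoter regions. No promoter region was gained or lost for the CTCF and cohesin machinery, core and naive pluripotency, primed and Nodal, neural, 2-cell-like, p53, Ahr or Wnt lists. Each of these lists had only 6 to 30 tested promoter regions, too few to tell an absence from the share of all promoter regions. Both lines had a peak in all 4 libraries at the promoters of 23 of 24 core and naive pluripotency genes.

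The clustered protocadherins, cell adhesion genes whose alternative promoters are textbook CTCF targets, held 4 of the 8 gained promoter regions, of 40 tested, with none lost. These were at Pcdha4, Pcdha11, Pcdhga11 and Pcdhgb2, named after their values were seen. At Pcdha4, 1 control library with IAA had a peak elsewhere within 500 bp of a start, and Pcdha11 had no promoter peak in either wild type library. Promoter calls over the 57 matched genes numbered 33 and 33 in the mutated libraries, 26 and 25 in the control line with IAA, 37 and 35 in untreated cells and 30 and 33 in the wild type line. Both mutated libraries thus lay above both control libraries and below both untreated ones. Regions with one of these genes as nearest gene were gained in 12 of 95 cases (12.6%), against 4.03% of all regions, and 1 of the 12 held a match.

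The remaining gained promoters in the lists were single regions. At Elf5, a trophoblast transcription factor gene (chr2:103424371-103424871), which held a match, the summit pileup was 22 and 17 in the mutated line, 19 and 24 in untreated cells and 20 and 21 in the wild type line, with the summit outside the region in the second mutated library. At the edge of a peak at the imprinted gene Dlk1 (chr12:109453610-109454110) it was 33 and 23 against 23 and 21 in untreated cells. At Mbd3, a NuRD subunit gene (chr10:80395214-80395714), it was 59 and 50, with 46 in 1 untreated library. Both control libraries with IAA had a peak elsewhere within 500 bp of a start of Elf5 and of Mbd3, and 1 of them of Dlk1. The region at the receptor gene Pdgfra (chr5:75153108-75153608) had 33 and 33, and another promoter region of that gene was called in both control libraries with IAA.

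The lost ones were at Mest and Hoxb1. At the imprinted gene Mest (chr6:30737553-30738053) the control libraries with IAA had pileups of 15 and 13 and untreated cells 16 and 16. At Hoxb1, a homeobox gene, 2 neighbouring regions were lost, where the control libraries had 10 and 15. The value of 10 was near the limit of its list, at percentile 1.69 with a lowest summit pileup of 9. Of the untreated libraries, 1 had a pileup of 11 there and the other no peak. In each control library 1 peak called both regions. Regions nearest to a trophoblast gene were gained in 9 of 140 cases (6.43%, against 4.03% of all regions), of which Elf5 and Tfap2c had 4 each, and lost in 2.14% (against 1.53%). For the other lists outside the protocadherins the gained share was 2.44% to 4.78%.

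Embryonic stem cell markers were open in both lines. Of 12 marker promoters 11 were called by all 4 libraries, with Dppa3 called by none. Promoters of other cell types' markers were also called, among them 6 of 6 for primitive endoderm and 4 of 8 for fibroblasts, so promoter peaks alone do not separate these cell types. At Ctcf itself, peaks over coding exons more than 1000 bp from the gene's start numbered 2 and 2 in the mutated libraries, 3 and 2 in the wild type line and 0 in all 4 libraries of the control line. Of the 4 serum libraries, which carried no transgene by their labels, 1 library at 12 h had 1 such peak.

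Other motif letters were searched on both strands without mismatch, and their shares are given for gained regions, lost regions and regions called by all 4 in that order. The AP-1 letters TGANTCA were in 15.6%, 15.8% and 14.4%, and the TEAD letters ACATTCC in 7.80%, 9.22% and 8.39%. The octamer ATTTGCAT was in 3.31%, 2.92% and 4.11%, and the KLF letters GGGTGTGG in 6.76%, 7.81% and 8.51%. The ESRRB letters TCAAGGTCA were in 1.88%, 3.21% and 2.67%, the YY1 letters AAGATGGCG in 0.875%, 1.57% and 1.17%, and the NRF1 letters GCATGCGC in 1.19%, 1.32% and 1.92%. The ZIC letters CAGCAGG, which overlap the CTCF consensus, were in 20.5%, 20.6% and 20.9%.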

How the data were processed

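The deposited files were peak lists, 1 per library, from ATAC-seq of 24 libraries in 12 groups of 2, of which 4 enter the comparison. Trim Galore, Bowtie2, MACS2 and deepTools and the build mm10 are named per the submitters' processing notes, with versions and settings not given in the sources used here. The fold that the authors deposited for a peak is a ratio, summit signal over local background within 1 library. The deposited −log10 p and −log10 q rank peaks within their own list. The deposited score is 10 times the −log10 q and was not used.

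Windows of 501 bp were placed without overlap around the summits of all 24 lists, from the best within-list percentile downwards, and 272857 of 405819, called by at least 2 libraries, were kept. A peak calls a window by an overlap of 1 bp. CTCF matches allow 1 mismatch to a 14-bp consensus on either strand, and transcription starts come from the GENCODE vM21 basic annotation. Summit pileups were solved from the deposited fold and −log10 p, assuming fold to be (pileup + 1)/(background + 1) and p to be a Poisson tail, which no label states. In 1400 to 1748 peaks sampled per list, a whole pileup gave the −log10 p within 0.02% plus 0.0001 in 100% of peaks, and in 1.06% to 2.36% with the fold set 5% off. They imply at least 33.2 and 32.4 M reads in the control libraries with IAA and 39.7 and 33.2 M in the mutated ones, and the lowest summit pileup of a list was 8 or 9. A region without a peak is therefore below a list's limit, not shown to be closed.

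Shares of peaks and of sites were compared with an exact two-sided permutation test over libraries, and p-values measure only the spread between these libraries. Windows have counts and exact binomial intervals (95%) and no test. Alternatives were the list length, the −log10 q, the overlap, the window size, the mismatches, the distances, each library left out, the replicate block, and libraries with and without a peak that resembles mitochondrial DNA. The members and lists were chosen with earlier results of these data known. Named windows, outside chromosome 18, ranked highest by the lower within-list percentile: 8 gained with and 4 without a match, 4 lost of each kind, 8 gained and 8 lost at protein-coding promoters, and up to 4 per gene list. Windows with the summit inside were added after the data were seen. Python 3.11.15, numpy 2.4.6, pandas 2.3.3, scipy 1.17.1 and matplotlib 3.10.9 were used, and the scripts were tested on simulated data.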

Additional observations from a re-analysis of the deposited data

How the results depend on the processing

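The difference in motif share kept its sign over 12 alternatives (0.553 to 1.81 percentage points), as did that in promoter share over 10 (−1.47 to −0.0579) and that in sites without a mismatch under a peak over 9 (11.6 to 14.2). Lists of equal length gave 5257 gained windows with a motif share of 20.3%. A −log10 q of at least 5 gave 2002 lost windows and a gained share of 18.2%. A 50% overlap gave 5316 gained windows and shares of 16.1% and 2.22% in gained and lost windows. The shares were 4.91% and 0.0642% without a mismatch, 31.5% and 15.9% with up to 2, and 3.26% and 0.257% within 50 bp of the centre. With the summit inside, the gained share was 16.7%. Leaving out each library in turn gave 15811 to 21846 gained windows with shares of 10.4% to 11.03%, and 7000 to 10154 lost. Replicate numbers did not pair the libraries (correlation of deviations −0.066). The replicate block gave differences of 1.502 and −0.999, and its pairs alone 35228 and 29421 gained windows, with shares of 7.98% and 8.55%, and 17896 and 21857 lost. The libraries with the mitochondrial-like peak, 1 of each line, gave 33919 gained (8.54%) and 16772 lost, and those without it 28238 gained (8.47%) and 20489 lost (2.25%). Counts thus depend on the rule that both libraries agree, and with 2 libraries a group no p could fall below 0.333.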
